A study of Mus musculus with 47 samples.

Results

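The genes described here are 375 mouse genes whose level in spermatozoa was higher in every library descended from Scml2-knockout (KO) fathers than in either control library. They were chosen from the sperm counts themselves. A gene was a member if it had 10 or more counts in all 4 KO-F1 and KO-F2 sperm libraries and if its CPM (the counts of a gene scaled to the total of its library) reached at least 2 times the higher control value in each of them. Of 23416 genes, 8855 had 10 or more counts in the 4 KO libraries (the eligible genes), and 379 of these passed the fold, which is 4.28%. Egr2, Ppp1r15a, Serpina3n and Sox9 were left out by name, as the rule asked, and 375 remained. Because the values that chose these genes are the KO and control sperm values, their difference between KO and Ctrl-F1 spermatozoa is given below as a description without a test.

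RNA was sequenced from 10 libraries of male mice aged 8 to 12 weeks, with 2 biological replicates in each of 5 groups. Ctrl-F1 and KO-F1 males (background strain BDF2) were produced by intracytoplasmic sperm injection of testicular sperm from wild-type or Scml2-KO fathers into wild-type oocytes, and KO-F2 males (background strain BDF3) by natural mating of KO-F1 males with C57BL/6 females. Scml2 is X-linked, so sons of a KO father do not inherit the mutant allele and all males sampled carried wild-type Scml2. Spermatozoa were motile cells separated by swim-up from the cauda epididymis, and liver was taken from the F1 groups. No library came from F2 males descended from control fathers, so generation and strain cannot be told apart in KO-F2. A sequencing run is named in the descriptions of the KO-F2 sperm samples, whereas those of F1 sperm give no run.

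SCML2 is a germline Polycomb protein, one of a family of chromatin regulators that keep genes silent by modifying histones. Spermatozoa have compacted chromatin and no longer transcribe, so the RNA they hold was made earlier in spermatogenesis or taken up during passage through the epididymis.

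The sperm libraries held between 1504080 and 2778700 counts in the F1 groups and 8388148 and 11465424 in KO-F2, and the livers held between 11351693 and 14293002. The ribosomal precursor Rn45s took between 3.52% and 28.7% of the counts of a sperm library. All sperm libraries held sperm transcripts: 43 genes of a sperm and late spermatid list summed to 152477 and 133997 CPM in Ctrl-F1, 66137 and 51294 CPM in KO-F1, and 177728 and 175876 CPM in KO-F2. The share of these transcripts was thus lowest in both KO-F1 libraries. B cell genes (7 in the files, such as immunoglobulin and surface receptor genes) summed to at most 14.8 CPM in the 4 F1 sperm libraries and to 491 and 348 CPM in KO-F2. Mast cell genes (9) summed to at most 27.3 CPM in F1 and to 465 and 233 CPM in KO-F2. The pan leukocyte list (12) summed to 6894 and 2554 CPM in Ctrl-F1, 30932 and 12325 CPM in KO-F1, and 3781 and 2358 CPM in KO-F2. Most of this was Cd52, a surface glycoprotein that the epididymal epithelium also makes, and the other 11 genes summed to 176 and 168 CPM, 233 and 193 CPM, and 752 and 948 CPM. Neutrophil genes (8) summed to 581 and 329 CPM, 542 and 700 CPM, and 110 and 82.6 CPM. Most of this was Ltf (lactotransferrin), at 104 and 54.4 CPM in KO-F2. The other 7 summed to at most 4.65 CPM in F1 and to 6.02 and 28.3 CPM in KO-F2. The part of these cells in the members' values was not tested. In such bulk libraries, fewer cells of a type and less RNA per cell cannot be told apart.

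The members were low-abundance transcripts. Their median level was 0.824 and 0.665 CPM in the 2 Ctrl-F1 libraries, 14.0 and 13.4 CPM in KO-F1, and 6.72 and 7.99 CPM in KO-F2. The median eligible gene stood at 18.5 and 16.0 CPM, 26.6 and 24.5 CPM, and 17.7 and 18.1 CPM. Low Ctrl-F1 levels follow in part from the rule. As a share of all sperm reads, the members together made up 0.0994% and 0.0963% (Ctrl-F1), 0.834% and 0.727% (KO-F1), and 0.412% and 0.541% (KO-F2). The groups could not overlap for any member because the rule asked for this. In liver, where the rule used no value, the median member stood at 9.45 and 11.2 CPM in Ctrl-F1 and at 10.0 and 9.51 CPM in KO-F1. The median eligible gene was there at 14.7 and 15.9 CPM and at 15.2 and 14.2 CPM.

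**Figure D1:**
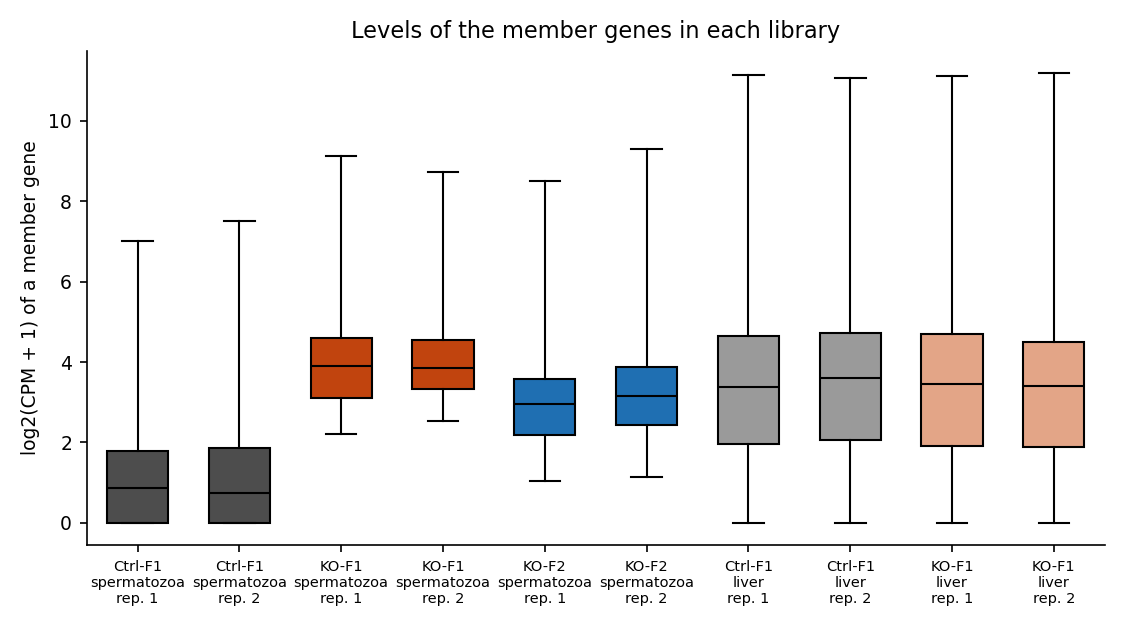
Levels of the 375 members in each of the 10 libraries, as log2(CPM + 1). Each box spans the middle of the genes from the lower to the upper quartile with the median as a line, and whiskers reach the lowest and highest gene. The Ctrl-F1 sperm medians (0.824 and 0.665 CPM) lie below those of the KO sperm libraries, as the rule requires, and the 4 livers have similar boxes.

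Most members were near the limit of detection in control spermatozoa. With a limit of 3 counts (1.99 CPM in the shallower Ctrl-F1 library), 200 members (53.3%) had at most 3 counts in each Ctrl-F1 library, and 85 of them had 0 counts in both. A further 152 lay between this level and 10 counts in both libraries, and 23 had 10 or more counts in both. The rule itself fixes this in part, since any eligible gene with 0 counts in both Ctrl-F1 libraries meets the fold. All 87 such genes did, and 2 of them were left out by name. Of the 6227 eligible genes with 10 or more counts in both libraries, 23 met the rule, which is 0.369%. For a gene at 0 the fold is a lower bound. Against 3 counts in the shallower library, the lowest KO value of these 85 genes ranged from 0.525 to 5.29 times that limit with a median of 1.22, and 55 of them were above it. With every control value raised to at least this limit, 243 genes still met the fold. In the opposite direction, 40 of 6986 genes with 10 or more counts in both Ctrl-F1 libraries were at or below 0.5 times the lower control CPM in all 4 KO libraries. Limits and intervals cover counting error only, since amplified copies of a molecule cannot be recognised.

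**Figure D2:**
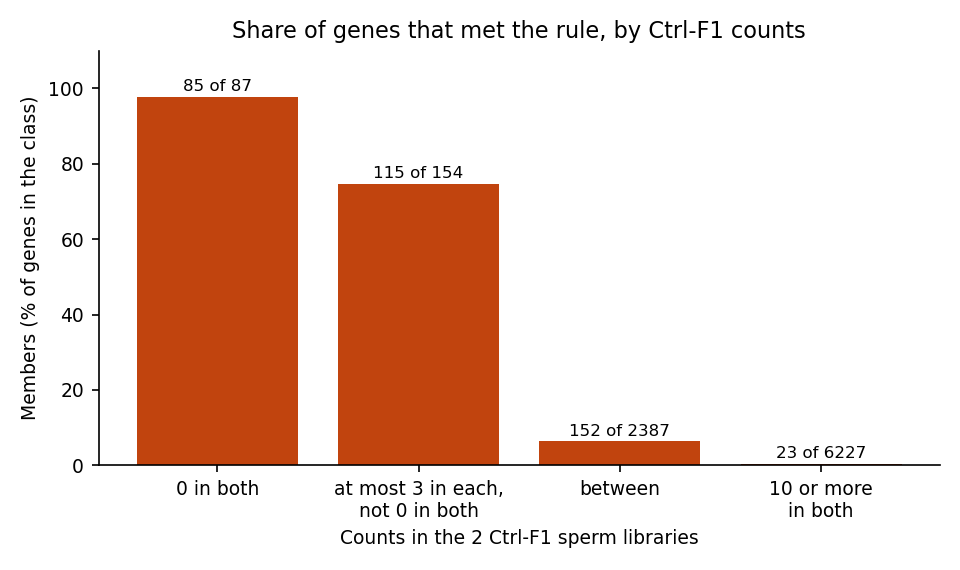
Percent of eligible genes that met the rule, in 4 classes of counts in the Ctrl-F1 sperm libraries. The number over each bar is members of all eligible genes in the class, from 85 of 87 genes at 0 in both libraries to 23 of 6227 genes with 10 or more in both. The first class meets the fold by construction, and 2 of its genes were left out by name.

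Members were ranked by ratio, taken as the lowest KO CPM over the higher Ctrl-F1 CPM, with the 3-count limit in place of any control value under it. Map1s, a microtubule-associated protein, led this ranking at 8.48. It was at 1.65 and 0 CPM in Ctrl-F1, at 28.4 and 36.4 CPM in KO-F1, and at 16.9 and 17.0 CPM in KO-F2. Its 4 KO values were all high and its control values rested on 4 and 0 counts. Prkacb, a catalytic subunit of the cAMP-dependent kinase, was at 2.47 and 0 CPM in Ctrl-F1, at 30.2 and 37.4 CPM in KO-F1, and at 16.9 and 19.3 CPM in KO-F2. Camk2d, a calcium and calmodulin-dependent kinase, was at 0.824 and 0 CPM in Ctrl-F1, at 22.0 and 12.5 CPM in KO-F1, and at 23.4 and 17.8 CPM in KO-F2. Unlike Prkacb, its KO-F2 values reached those of KO-F1.

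Transcription factors among these top members differed in which generation was higher. Irf2, an interferon regulatory factor, was at 2.06 and 0 CPM in Ctrl-F1, at 13.7 and 14.9 CPM in KO-F1, and at 21.6 and 34.9 CPM in KO-F2, so both KO-F2 libraries were above both KO-F1 libraries. Stat5b, which carries cytokine and growth hormone signals to the nucleus, was at 1.24 and 0 CPM, 27.4 and 12.9 CPM, and 16.1 and 11.4 CPM in the same order of groups, and its KO-F1 and KO-F2 ranges overlapped. The zinc finger gene Zfp358 was at 0.412 and 1.33 CPM in Ctrl-F1, at 87.8 and 49.4 CPM in KO-F1, and at 11.8 and 18.1 CPM in KO-F2. Zfp292 and Zfp710, which code for further zinc finger proteins, were also higher in both KO-F1 libraries (34.5 and 36.0 CPM for Zfp292, 23.0 and 21.1 CPM for Zfp710) than in both KO-F2 libraries (13.2 and 13.1 CPM, 10.8 and 16.6 CPM). The other genes of this ranking were Anxa7, an annexin, Elmod3, an ELMO domain protein, Hook3, a dynein adaptor, Akap8, an anchor of protein kinase A, and Def6, Nnt and Ncdn. Def6, a guanine nucleotide exchange factor of lymphocytes, had 0 counts in both control libraries, and its lowest KO value was 5.29 times the limit, with 17.3 and 19.7 CPM in KO-F1 and 10.6 and 11.8 CPM in KO-F2. Nnt, the mitochondrial transhydrogenase that makes NADPH, was at 0.824 and 0.665 CPM in Ctrl-F1, at 15.1 and 19.2 CPM in KO-F1, and at a mean of 10.7 CPM (n = 2) in KO-F2. Ncdn (neurochondrin) was at 0.412 and 0.665 CPM in Ctrl-F1, at 46.8 and 32.1 CPM in KO-F1, and at 11.7 and 10.1 CPM in KO-F2.

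The 23 members with 10 or more counts in both Ctrl-F1 libraries are those whose fold is measured best, and Hspb8, Ptbp1, Ppp3ca and Polr2j were picked out of them after their values were seen. They summed to 493 and 518 CPM in Ctrl-F1, 2544 and 1732 CPM in KO-F1, and 1410 and 1783 CPM in KO-F2. Gpx1, the glutathione peroxidase that removes hydrogen peroxide in most tissues, had the most reads. It was at 129 and 180 CPM in Ctrl-F1, at 561 and 423 CPM in KO-F1, and at 365 and 625 CPM in KO-F2, or 3.18-fold and 3.20-fold above Ctrl-F1 in the group means. Nadk, the cytosolic NAD kinase that supplies NADP, was at 28.8 and 25.3 CPM in Ctrl-F1, at 242 and 168 CPM in KO-F1, and at 75.2 and 71.2 CPM in KO-F2, or 7.58-fold and 2.71-fold higher. Thus Gpx1 had similar means in the KO generations, while Nadk was lower in both KO-F2 libraries than in both KO-F1 libraries.

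Crip1, a small LIM-domain protein abundant in immune cells and gut, was at 19.0 and 21.3 CPM in Ctrl-F1, at 99.3 and 71.0 CPM in KO-F1, and at 146 and 184 CPM in KO-F2. Msn (moesin), which links actin to the plasma membrane and is the only one of the 22 genes of the actin cytoskeleton list among the members, was at 11.1 and 14.0 CPM, 38.1 and 30.2 CPM, and 59.5 and 81.3 CPM. These were the 2 of the 23 with both KO-F2 values above both KO-F1 values (22.5% of eligible genes were), and 12 of the 23 had both below (51.5% of eligible genes did), close to the share of eligible genes. Hspb8, a small heat shock protein, had a wide spread in KO-F1, with 6.59 and 8.64 CPM in Ctrl-F1, 139 and 39.3 CPM in KO-F1, and 21.5 and 25.5 CPM in KO-F2. Cdk2ap2, a partner of the cell cycle kinase CDK2, was at 26.0 and 29.3 CPM, 196 and 140 CPM, and 64.0 and 65.3 CPM. Its KO-F2 values were close to each other and below both KO-F1 values. Ptbp1, the splicing repressor that binds pyrimidine tracts, was at 19.4 and 16.0 CPM, 106 and 93.5 CPM, and 48.1 and 40.8 CPM, with no overlap between the generations. Nudcd3, a cochaperone of dynein, was at 21.4 and 29.9 CPM, 77.7 and 64.2 CPM, and 76.2 and 82.9 CPM, and its KO ranges overlapped.

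Of the remaining genes with many reads, Ninj1, a cell surface protein that ruptures the membrane of dying cells, stood at 3.06-fold above Ctrl-F1 in both KO generations, with 24.3 and 25.3 CPM in Ctrl-F1. Lrrc59, a ribosome-binding membrane protein, was at 31.7 and 13.3 CPM in Ctrl-F1 and so had a wide control spread, and its means were 5.61-fold and 3.16-fold higher in KO-F1 and KO-F2. Nme1, a nucleoside diphosphate kinase, and Sub1, a coactivator of RNA polymerase II, had ratios of 2.01 and 2.02 of the lowest KO to the higher control value, close to the limit of the rule. Ppp3ca, the catalytic subunit of calcineurin, was at 14.8 and 13.3 CPM in Ctrl-F1, at 53.6 and 31.6 CPM in KO-F1, and at 35.2 and 39.0 CPM in KO-F2. Polr2j, a subunit of RNA polymerase II, was at 5.77 and 7.31 CPM, 64.8 and 23.5 CPM, and 27.8 and 17.3 CPM.

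**Figure D3:**
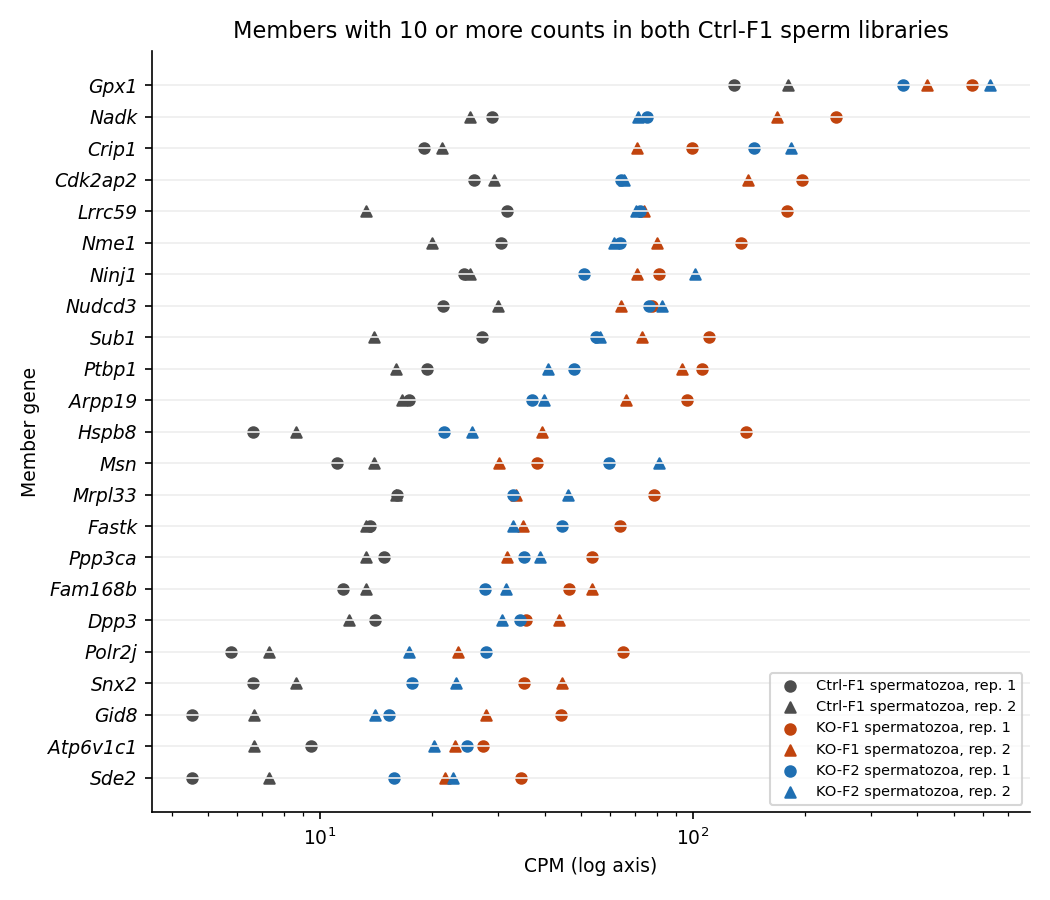
CPM (log axis) of the 23 members with 10 or more counts in both Ctrl-F1 sperm libraries, 1 point per sperm library, circles for replicate 1 and triangles for replicate 2. Grey control points lie to the left for every gene, as the rule requires, and both orange KO-F1 points lie right of both blue KO-F2 points for 12 of the 23 genes (51.5% of eligible genes) and left of them for Crip1 and Msn (22.5% of eligible genes).

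The 100 bases before the start of 4 of these 23 genes are shown. These 4 had the largest ratios of lowest KO to higher control value among those with a RefSeq promoter window (build GRCm38.p6) at the outermost start of the gene. This choice left out the genes of a single chromosome. Capitals mark matches, on either strand, to any of 12 motifs searched. The matches were GC boxes (GGGCGG) in Crip1, Hspb8 and Polr2j, and a CCAAT box (CCAAT) and an ETS element (CCGGAAGT) in Polr2j. No searched motif was found in these bases of Nadk. The stretches are chr12:113151912-113152011 on the plus strand for Crip1, chr5:116422865-116422964 on the minus strand for Hspb8, chr4:155562281-155562380 on the plus strand for Nadk and chr5:136116591-136116690 on the plus strand for Polr2j, each just upstream of the annotated first exon.
Crip1: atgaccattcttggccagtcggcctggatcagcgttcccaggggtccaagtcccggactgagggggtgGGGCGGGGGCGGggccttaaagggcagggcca
Hspb8: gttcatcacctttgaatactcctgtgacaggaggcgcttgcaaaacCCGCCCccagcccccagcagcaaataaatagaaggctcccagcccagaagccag
Nadk: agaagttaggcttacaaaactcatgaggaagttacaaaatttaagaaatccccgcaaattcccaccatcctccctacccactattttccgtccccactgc
Polr2j: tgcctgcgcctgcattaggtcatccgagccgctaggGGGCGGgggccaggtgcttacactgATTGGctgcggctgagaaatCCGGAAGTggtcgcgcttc

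Promoters of the whole group were searched for the same motifs. Windows of 300 bases, 250 before and 50 after the start, were found for 317 members (411 windows). A GC box lay in 61.6% of member windows, 61.8% of eligible windows and 35.7% of all windows. A CCAAT box lay in 40.6%, 37.9% and 37.4%, an E-box (CACGTG) in 13.1%, 10.1% and 7.15%, a TATA box (TATAAA) in 4.14%, 7.10% and 13.6%, and a STAT element (TTCCNNGAA) in 6.57%, 4.39% and 4.81%. The shares for the cAMP response element (TGACGTCA) were 1.95%, 3.12% and 1.79%, for the AP-1 element (TGACTCA) 4.87%, 3.75% and 5.20%, for the ETS element 7.30%, 8.49% and 3.89%, and for the antioxidant response element (TGACNNNGC) 13.9%, 14.5% and 12.4%. NF-kB elements lay in 10.2%, 10.0% and 8.46%, CArG boxes in 0.730%, 1.33% and 1.63%, and heat shock elements in 0.243%, 0.563% and 0.603%. Motifs may overlap within a window, and windows of the same gene share bases. The median GC content was 60.7% for members and for eligible genes and 52.7% for all windows. Of the 375 members, 374 matched a RefSeq gene, on 20 chromosomes, and 11 (2.94%) lay on the X chromosome against 2.62% of eligible genes. Their median exon length was 3.50 kb against 3.23 kb.

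Members were sorted by known role after the list was known, with 152 genes placed in 13 groups of background knowledge. In the redox group of 6 genes, Gss, which makes glutathione, was at 3.30 and 1.99 CPM in Ctrl-F1, at a mean of 9.53 CPM (n = 2) in KO-F1, and at 14.2 and 16.0 CPM in KO-F2. Gpx6, a glutathione peroxidase, was at 3.30 and 0 CPM, 19.1 and 17.3 CPM, and 9.51 and 7.27 CPM. So Gss was higher in KO-F2 and Gpx6 in KO-F1. Of the 24 genes of an antioxidant and glutathione list, Gpx1 was the only member.

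The 12 signalling genes summed to 55.6 and 55.2 CPM in Ctrl-F1, 357 and 294 CPM in KO-F1, and 187 and 216 CPM in KO-F2. Beside Ppp3ca they hold the calcineurin regulatory subunit Ppp3r1, at 7.42 and 5.98 CPM, 42.1 and 34.5 CPM, and a mean of 23.6 CPM in KO-F2 (n = 2), and the calcineurin target Nfatc3, at 2.06 and 3.99 CPM, 34.9 and 18.2 CPM, and 9.51 and 17.0 CPM. Calcineurin is a calcium-dependent phosphatase that sends NFAT factors to the nucleus. All 3 genes had their highest level in KO-F1 replicate 1. In the 19 transcription factors, 12 had at most 3 counts in each Ctrl-F1 library. Nr3c1, the glucocorticoid receptor, was measured best among those described, at 6.59 and 5.98 CPM, 26.3 and 16.3 CPM, and 15.1 and 21.8 CPM, and its KO ranges overlapped. Per1, a clock gene that responds quickly to stimuli and the only member on a list of 46 immediate early and feedback genes that does not hold Egr2, which the rule left out by name, was at 4.53 and 0.665 CPM, 9.36 and 12.5 CPM, and 23.7 and 13.8 CPM.

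Chromatin genes (10) summed to 19.0 and 19.9 CPM in Ctrl-F1, 172 and 193 CPM in KO-F1, and 84.4 and 109 CPM in KO-F2. Among them, Yaf2, a component of Polycomb repressive complexes, was at 4.12 and 4.65 CPM, 51.8 and 19.2 CPM, and 9.77 and 14.4 CPM. Rbbp5, a core subunit of histone H3K4 methyltransferases, was at 0 and 1.99 CPM, 10.4 and 25.9 CPM, and 6.02 and 5.13 CPM. The histone demethylase Kdm4b was at 1.65 and 2.66 CPM, 16.9 and 12.9 CPM, and 13.5 and 16.2 CPM. These genes differed in whether the KO generations overlapped, which they did for Kdm4b only among the 3. Zinc finger symbols made up 18 members (4.80%) against 1.51% of eligible genes, a class chosen after the values were seen and open to sharing of reads among similar genes. They summed to 21.0 and 19.9 CPM in Ctrl-F1, 360 and 384 CPM in KO-F1, and 125 and 138 CPM in KO-F2, and 17 of the 18 were lower in both KO-F2 libraries than in both KO-F1 libraries, as were 66.1% of all members and 51.5% of eligible genes.

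RNA processing genes (17) summed to 57.3 and 46.5 CPM in Ctrl-F1, 378 and 334 CPM in KO-F1, and 197 and 205 CPM in KO-F2. The 13 genes of tRNA and mitochondrial translation summed to 29.7 and 23.3 CPM, 241 and 194 CPM, and 110 and 122 CPM, and include the mitochondrial tRNA synthetases Iars2 and Hars2, both at 0 counts in Ctrl-F1. Iars2 was at 10.1 and 6.23 CPM in KO-F1 and at 7.15 and 6.20 CPM in KO-F2. Coenzyme, haem and fuel metabolism (16 genes) includes Pank1 and Pank3, kinases at the entry to coenzyme A synthesis. Pank1 was at 2.47 and 0 CPM, 30.9 and 18.7 CPM, and 5.67 and 5.72 CPM, and Pank3 at 1.65 and 1.33 CPM, 19.4 and 24.5 CPM, and 6.54 and 8.82 CPM. Both were lower in KO-F2 than in KO-F1 without overlap. The 6 telomere and DNA repair genes, 5 of them with at most 3 counts in each Ctrl-F1 library, summed to 5.36 and 6.65 CPM, 109 and 130 CPM, and 37.4 and 37.0 CPM.

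The order of library sums, with KO-F1 above KO-F2, was not shared by all role groups. The redox group summed to 168 and 213 CPM in Ctrl-F1, 877 and 653 CPM in KO-F1, and 486 and 744 CPM in KO-F2. The coenzyme, haem and fuel group summed to 61.8 and 43.9 CPM, 484 and 322 CPM, and 199 and 627 CPM. In both groups the KO ranges of the sums overlapped. Gpx1 held most of the redox sum, and Alas2 most of the coenzyme, haem and fuel sum of KO-F2 replicate 2. Gene by gene, 4 of the 6 and 13 of the 16 were lower in both KO-F2 libraries than in both KO-F1 libraries. This held for 66.1% of all members and 51.5% of eligible genes. Chaperone and protein turnover genes (9) summed to 61.8 and 67.8 CPM in Ctrl-F1, 408 and 317 CPM in KO-F1, and 193 and 211 CPM in KO-F2. Vesicle traffic and proton pump genes (11) summed to 33.4 and 31.9 CPM, 194 and 186 CPM, and 118 and 125 CPM. RNA polymerase II genes (7) summed to 43.7 and 27.9 CPM, 229 and 180 CPM, and 123 and 112 CPM. Immune signalling and cell death genes (14) did not follow this order, at 39.1 and 39.9 CPM, 221 and 211 CPM, and 151 and 233 CPM. In this group the complement gene C2 was at 0.412 and 0 CPM, 8.64 and 16.3 CPM, and 10.1 and 18.1 CPM, and Irf1, an interferon-induced factor, at 1.24 and 7.31 CPM, 15.5 and 22.1 CPM, and 19.4 and 25.3 CPM. Cytoskeleton, adhesion and nuclear envelope genes (12) summed to 52.3 and 54.5 CPM, 383 and 240 CPM, and 330 and 474 CPM, with 5 of the 12 higher in both KO-F2 libraries than in both KO-F1 libraries, as were 4.53% of all members and 22.5% of eligible genes.

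The 25 gene lists hold none of the 4 genes that the rule left out by name. They had 412 genes in the files, of which 255 were eligible and 6 were members (2.35%, against 4.28% of eligible genes passing the fold). These were Per1, Gpx1, Msn, Spink11, Itga6 and Alas2, and 19 lists had none. Among them were the heat shock (14 genes), unfolded protein (20) and NF-kB response (22) lists, the sperm list and those of B cells, mast cells and macrophages. At a rate of 4.28%, lists this short can hold no member without differing from other eligible genes. The small heat shock protein Hspb8, for example, is a member but on no list. Spink11, an epididymal protease inhibitor and 1 of 27 principal cell genes, was at 0.412 and 0.665 CPM in Ctrl-F1, at 10.1 and 13.4 CPM in KO-F1, and at 2.79 and 2.38 CPM in KO-F2. The whole principal cell list summed to 25552 and 9100 CPM in Ctrl-F1, 20994 and 19342 CPM in KO-F1, and 5118 and 2595 CPM in KO-F2, so it was not lower in Ctrl-F1 than in KO-F2. Itga6, an integrin of basal epithelial cells, was at 0.412 and 0 CPM, 3.96 and 5.27 CPM, and 10.0 and 26.8 CPM, while the 10 genes of its list summed to 408 and 192 CPM, 159 and 245 CPM, and 65.6 and 90.4 CPM.

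The size of the KO-F2 value of Alas2 rested on 1 library. This enzyme starts haem synthesis in red cell precursors. It was at 1.65 and 1.33 CPM in Ctrl-F1, at 4.68 and 10.5 CPM in KO-F1, at 21.9 CPM in KO-F2 replicate 1 and at 430 CPM in KO-F2 replicate 2. The KO-F2 libraries thus differed 19.6-fold, the widest gap of any member in that group, and replicate 1 was also above both KO-F1 values. Without KO-F2 replicate 2 the log2 fold change of KO-F2 against KO-F1 was 2.00, against 5.29 with it. The other erythroid genes of the list that were in the files summed to 0.349 CPM in KO-F2 replicate 1, 6.80 CPM in KO-F2 replicate 2 and 5.36 CPM in Ctrl-F1 replicate 1, and to 0 in the other 3 sperm libraries. Among all members, the gap between replicates had a median of 1.52-fold in KO-F1, where 103 members differed over 2-fold, and of 1.31-fold in KO-F2, where 53 did.

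The KO generations were then compared with each other, which asks whether the higher levels of KO-F1 spermatozoa were also those of KO-F2. This contrast was not the one that chose the members, but it uses the same 4 libraries, and the minimum of 10 counts stands for 3.60 and 4.79 CPM in KO-F1 and for 0.872 and 1.19 CPM in the deeper KO-F2 libraries. Of the 375 members, 248 (66.1%) were lower in both KO-F2 libraries than in both KO-F1 libraries, against 51.5% of eligible genes. In the opposite direction the members were 17 (4.53%), against 22.5% of eligible genes. The mean of KO-F1 was a median 2.07 times that of KO-F2 over members and 1.59 times over eligible genes.

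**Figure D4:**
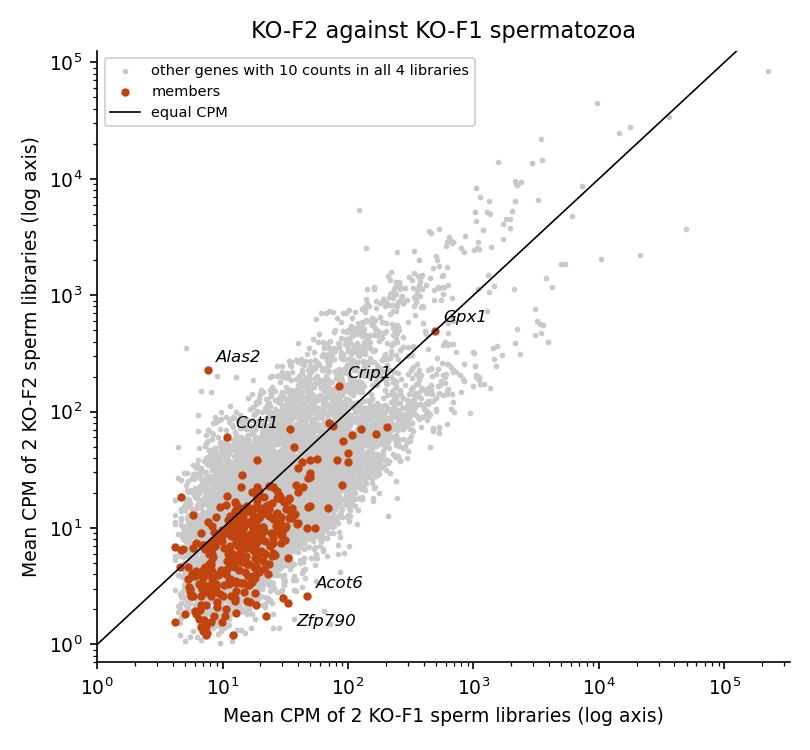
Mean CPM in the 2 KO-F2 sperm libraries against mean CPM in the 2 KO-F1 sperm libraries (both axes log), members in orange and other eligible genes in grey, with a line at equal CPM. Below the line lie 337 of 375 members (89.9%, against 68.3% of eligible genes), and Alas2, Cotl1 and Crip1 are among those above it.

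By edgeR's quasi-likelihood test, with genes called at a change of at least 2-fold and an adjusted p under 0.01, no member was called higher (2.11% of the 13517 genes tested were) and no member was called lower (0.2% were). All 375 members passed the filter on low counts. On simulated counts for this comparison edgeR called 28 of 200 genes changed 4-fold, so the absence of calls does not show equal levels. At an unadjusted p under 0.05, 69 members (18.4%) differed, against 36.8% of all genes tested. At an adjusted p under 0.05 edgeR called 5 members higher (14.2% of all genes) and 11 lower (6.23%). DESeq2 called 3 members higher (9.25% of its genes) and 7 lower (4.35%). The median log2 fold change of the members was -0.63 (quartiles -1.22 and -0.05) on the normalised scale, against 0.13 for all genes tested, and 76.0% of members had a negative value against 46.9% of all genes. Members had to have 10 counts and at least 2 times the higher Ctrl-F1 CPM in each of these libraries, and the other genes did not. The shares and medians above therefore compare unlike sets of genes. Over the 8855 genes that met the minimum of 10 counts, the medians were -0.43 for members and -0.04 for all genes.

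The members with the smallest adjusted p were chosen for description after their values were seen. Acot6, an acyl-CoA thioesterase with close relatives in the genome, had 0 counts in both Ctrl-F1 libraries, 69.1 and 25.4 CPM in KO-F1, and 2.70 and 2.50 CPM in KO-F2. Its log2 fold change was -3.72 (SE 0.59, edgeR adjusted p = 0.0110). Zfp790 was at 0 in Ctrl-F1, at 33.8 and 32.1 CPM in KO-F1, and at 1.22 and 3.34 CPM in KO-F2, a log2 fold change of -3.46 (SE 0.63, edgeR adjusted p = 0.0143). Terf2ip, which codes for the telomere protein RAP1, was at 0 and 0.665 CPM, 50.7 and 58.5 CPM, and 11.4 and 8.46 CPM. Its log2 fold change was -2.03 (SE 0.41, edgeR adjusted p = 0.0193). In each of these genes the KO generations were far apart relative to their replicates, yet the edgeR adjusted p did not pass 0.01. DESeq2 called each of them lower (DESeq2 adjusted p = 6.26e-07 for Acot6, 2.75e-05 for Zfp790 and 0.00107 for Terf2ip).

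At an adjusted p under 0.05, edgeR called Cotl1, Crip1, Msn, Alas2 and Itga6 higher in KO-F2. Cotl1, an actin-binding protein abundant in leukocytes, was at 2.06 and 1.33 CPM in Ctrl-F1, at 13.0 and 8.63 CPM in KO-F1, and at 23.1 and 98.5 CPM in KO-F2, with a log2 fold change of 2.89 (SE 0.69, edgeR adjusted p = 0.0298). The corresponding values were 1.38 (SE 0.32, edgeR adjusted p = 0.0278) for Crip1, 1.46 (SE 0.34, edgeR adjusted p = 0.0278) for Msn and 5.29 (SE 1.33, edgeR adjusted p = 0.0341) for Alas2. Itga6 had a log2 fold change of 2.39 (edgeR adjusted p = 0.0480). None of these passed the threshold of 0.01 with edgeR. DESeq2 called Cotl1, Crip1 and Msn higher (DESeq2 adjusted p = 0.000365, 0.00268 and 0.00928). Without KO-F2 replicate 2 the log2 fold change of Cotl1 was 1.60. Crip1 and Msn had the opposite sign (-0.63 and -0.55) when the libraries were scaled to the sperm list. Several cell type lists summed higher in both KO-F2 libraries than in all F1 sperm libraries. These were the B cell, T and NK cell, mast cell, macrophage, class II antigen presentation, erythroid, epididymal clear cell and sperm lists. For the erythroid list this rested on Alas2, itself a member. Its other genes summed to 0.349 and 6.80 CPM in KO-F2 and to 5.36 CPM in Ctrl-F1 replicate 1. Class II genes (8), for example, summed to 277 and 511 CPM in Ctrl-F1, 272 and 408 CPM in KO-F1, and 2348 and 1783 CPM in KO-F2. The pan leukocyte and neutrophil lists, in contrast, summed lower in both KO-F2 libraries than in both KO-F1 libraries, and higher there without Cd52 and Ltf, as given above. Also lower were the epididymal principal cell, basal cell, general epithelium, and Sertoli and Leydig cell lists. The part of these lists in the members' values was not tested.

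Liver gave a measurement of the members in other samples of the F1 groups. There, 305 members (81.3%) were at 1 CPM or more in all 4 livers, against 79.2% of eligible genes, and 13 had no counts in any liver. The members summed to 11004 and 11485 CPM in Ctrl-F1 liver and to 11257 and 10377 CPM in KO-F1 liver. Gpx1 was at 2264 and 2129 CPM in Ctrl-F1 liver and at 2208 and 2327 CPM in KO-F1 liver, and Nadk at 175 and 230 CPM and at 196 and 162 CPM. The groups overlapped for both genes. Alas2 was at 220 and 249 CPM in Ctrl-F1 and at 177 and 187 CPM in KO-F1, with both KO-F1 livers lower (edgeR adjusted p = 0.574).

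Of the 330 members that passed the filter in liver, none was called higher (0% of the 11505 genes tested were) or lower (0% were) by edgeR, and the smallest adjusted p of a member was 0.433. At an adjusted p under 0.05 no member was called either (0% of all genes higher, 0.00869% lower). At an unadjusted p under 0.05, 13 members (3.94%) differed, against 9.41% of all genes tested. DESeq2, which gave an adjusted p for 201 members and 7306 genes, called no member, against 0.0958% of its genes higher and 0.178% lower. Both KO-F1 livers were above both Ctrl-F1 livers for 50 members (15.2%), against 15.7% of all genes tested, and below them for 65 (19.7%), against 25.7%. The median log2 fold change was -0.0049 for members (quartiles -0.19 and 0.18), with 164 members higher and 166 lower, and -0.0058 for all genes. The smallest p-values belonged to Gbp3, an interferon-induced guanylate-binding protein, at 3.57 and 4.35 CPM in Ctrl-F1 and 7.52 and 9.95 CPM in KO-F1, with a log2 fold change of 1.21 (SE 0.30, edgeR adjusted p = 0.433). Next came Lysmd3, a membrane protein, at 13.0 and 16.5 CPM and at 8.58 and 5.20 CPM, with a log2 fold change of -1.03 (SE 0.27, edgeR adjusted p = 0.442). The replicates of these genes did not overlap, and neither gene passed the threshold. Without Ctrl-F1 liver replicate 1, Bcl6, a transcriptional repressor of lymphocytes and liver, was called lower (log2 fold change -1.45, edgeR adjusted p = 6.94e-05). With all livers it was at 15.4 and 41.7 CPM in Ctrl-F1 and at 10.8 and 17.2 CPM in KO-F1, so the groups overlapped (log2 fold change -0.94, edgeR adjusted p = 0.538).

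**Figure D5:**
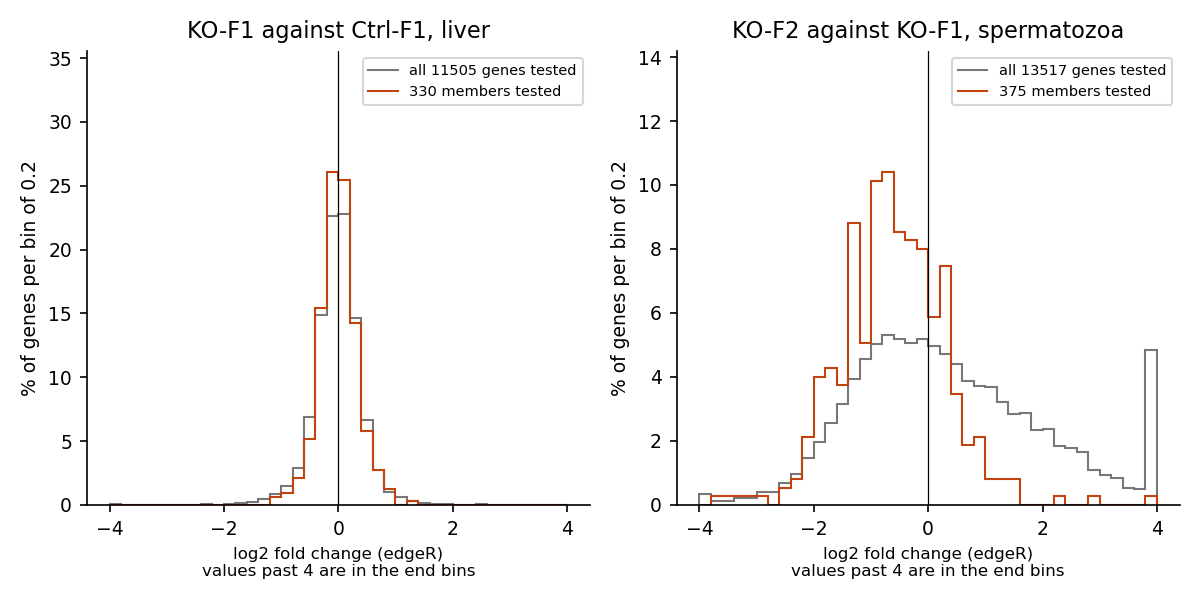
Distribution of log2 fold changes (edgeR) as percent of genes per bin of 0.2, members in orange and all genes tested in grey, for KO-F1 against Ctrl-F1 liver (left) and KO-F2 against KO-F1 spermatozoa (right), with values past the axis in the end bins. In liver both curves centre on 0, and in spermatozoa the members' curve (median -0.63) lies left of that of all genes (median 0.13).

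The 3 members just inside the limit were Ttc28, Vat1 and Prmt10, with ratios of 2.001, 2.002 and 2.011 of the lowest KO to the higher Ctrl-F1 CPM, and the genes just outside were Nus1, Hmg20b and Utp14a, with 1.999, 1.996 and 1.996. Ttc28 was at 2.47 and 2.66 CPM in Ctrl-F1, at 26.6 and 5.75 CPM in KO-F1, and at 5.32 and 9.18 CPM in KO-F2. Nus1, a subunit of the enzyme that makes dolichol precursors, was at 7.42 and 5.98 CPM, 60.5 and 45.1 CPM, and 14.8 and 17.5 CPM. The ratios on either side of the limit were thus nearly equal. For comparison, edgeR called no gene in the contrasts behind the rule, KO-F1 against Ctrl-F1 spermatozoa (0% of 10785 genes in either direction) and KO-F2 against Ctrl-F1 spermatozoa (0% of 13149). At an unadjusted p under 0.05 the counts were 2105 and 1960 genes, and DESeq2 called 125 genes higher and 265 lower in KO-F1 and 149 higher and 128 lower in KO-F2.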

How the data were processed

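The values used were raw counts of reads per gene symbol that the authors deposited, 1 file per library. According to their methods, single-end reads were aligned to GRCm38 with HISAT2 2.1.0 and those with a unique alignment were counted per gene with featureCounts. The strand setting and annotation are not given in the sources used here, so overlapping and near-identical genes are uncertain. Liver libraries came from mRNA by a stranded kit and sperm libraries from amplified cDNA, and amplified copies cannot be recognised.

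From 23420 lines per file, 4 lines (2 symbols listed more than once) were left out, and CPM used the file total. The members, gene lists, role groups and motifs were chosen with earlier results of these data known. Named genes are the 15 with the largest ratio of lowest KO to higher Ctrl-F1 CPM, the 10 with the highest mean KO CPM, list genes, any member called between KO-F2 and KO-F1 or in liver, and the 3 on either side of the limit. A ratio against 0 is undefined, so control values under 3 counts of the shallower library were set to that limit for the ranking. Other genes were chosen after their values were seen.

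Tests were edgeR 4.0.16 (R 4.3.3) quasi-likelihood fits with TMM scaling, filterByExpr and Benjamini-Hochberg adjustment over all genes tested. Genes were called at 2-fold and an adjusted p under 0.01. With 2 libraries a group, no exact test of a single gene can be informative. DESeq2 1.42.0 was an alternative. On simulated counts with 200 of the genes changed 4-fold, edgeR called 170 in the liver comparison (11505 genes) and 28 in KO-F2 against KO-F1 spermatozoa (13517 genes), and DESeq2 162 and 64. RefSeq sequences were of build GRCm38.p6, the authors' build. Replicate numbers were not taken to pair animals, since the correlation of same-numbered deviations was 0.08 between KO-F1 and KO-F2 spermatozoa, -0.01 between Ctrl-F1 and KO-F1 spermatozoa, 0.18 between Ctrl-F1 and KO-F2 spermatozoa and -0.26 in liver, and the labels tie the numbers to no shared animal or day. Histone and embryo data were not analysed here.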

Additional observations from a re-analysis of the deposited data

How the results depend on the processing

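The number of members was 307 with TMM scaling, 284 without Rn45s in the total, 333 with scaling to the sperm list, 682 at 1.5-fold, 213 at 3-fold, 225 with at least 20 counts, and 185 with counts thinned to the smallest library, of which 134 were members. It ranged from 469 to 1550 when 1 library was left out, and was 1550 without Ctrl-F1 replicate 1, 1122 without Ctrl-F1 replicate 2, 564 without KO-F1 replicate 1 and 668 without KO-F1 replicate 2. Of alternatives chosen after seeing the data, 10 or more counts in a Ctrl-F1 library left 58 and a control limit of 3 counts left 243.

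In liver, no alternative called a member except leaving out Ctrl-F1 replicate 1, where Bcl6 was called lower (range 0 to 1 lower, 0 higher). The replicate block called 0 members in liver, and so did the block with crossed numbers. Between KO-F2 and KO-F1 spermatozoa, members called higher and lower are given with the calls over all genes tested in brackets. They were 1 (Alas2) and 1 (Acot6) with the replicate block (665 and 154 of 13517 genes). DESeq2 called 3 and 7 (1400 and 658 of 15135), and edgeR with its size factors 0 and 1 (325 and 58 of 13517). At an adjusted p under 0.05 they were 5 and 11 (1917 and 842 of 13517), and without the filter 5 and 9 (1841 and 711 of 18714). With at least 10 counts in every library they were 6 and 12 (1304 and 501 of 8855), and with thinned counts 0 and 2 (783 and 234 of 9965). Scaling to the sperm list called 0 and 149 (39 and 3929 of 13517), and it moved the median of all genes to -1.89. Leaving out 1 library gave 0 to 2 higher and 0 to 21 lower: 0 and 13 without KO-F1 replicate 1, 0 and 21 without KO-F1 replicate 2, 2 and 0 without KO-F2 replicate 1, and 0 and 0 without KO-F2 replicate 2. The median log2 difference of members was -0.43 with at least 10 counts in every library, -0.80 with all 3 sperm groups in 1 model, -2.66 with scaling to the sperm list and -0.29 over the 23 best measured members (chosen after seeing the data). Under the sperm list scaling Crip1 was at -0.63 and Msn at -0.55. The cause of these changes was not tested.

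In the 250 bases before the start, 55.7% of member windows held a GC box and 5.11% an ETS element. The other motif shares stayed within their counting intervals. Depth limits the control values, since 10 counts in Ctrl-F1 stand for 4.12 and 6.65 CPM.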
